A study of Mus musculus with 63 samples.

Results

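The genes that mark inhibitory neurons and were followed through the series numbered 10: Gad1, Gad2, Slc32a1, Sst, Pvalb, Vip, Npy, Dlx1, Dlx2 and Lhx6. They were taken by name, as GABAergic and interneuron genes, from the 24990 rows of the gene tables, and all 10 were found as 1 row each. The study deleted Chaserr, a long noncoding RNA gene that lies just upstream of Chd2, a chromatin remodeller gene linked to epileptic encephalopathy, and asked which genes respond when Chaserr is lost and Chd2 rises. RNA-seq was available for 47 libraries in 17 groups and ATAC-seq, which maps open chromatin, for 12 libraries.

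Adult brain, whole E13.5 embryos and whole E9.5 embryos were each sampled in 3 WT and 3 Chaserr+/- libraries. The paper used crosses of WT females with Chaserr+/- males for most of its work, without naming these samples. The labels do not say whether replicates were separate animals or cultures, and the study's text describes separately derived Chaserr-/- mEFs and separate embryos for the ATAC-seq libraries, so for the other groups p-values may measure a technical spread only. The Chaserr+/- mice carried a deletion of the Chaserr promoter and first exon on 1 of their alleles, and descended from a pair of founder lines that the study used interchangeably. Mouse embryonic fibroblasts (mEFs), cultured from E13.5 embryos after removal of the head and liver, were Chaserr+/- (n = 3), Chaserr-/- (n = 3), Chd2 m/m (n = 2, homozygous for a frameshift in Chd2) or double mutants (n = 3, labelled Chaserr-/ Chd2m/m), each with its own WT set (n = 3). The labels place the WT mEFs of the Chaserr+/- set, and those of the Chaserr-/- set, in the same pregnancy as their mutants. For the double mutant RNA-seq set, the descriptions put mutants and WT together, whereas the titles name different crosses. Libraries labelled Neuro2a, a mouse neuroblastoma line, came from an RNA immunoprecipitation (RIP) with an antibody to CHD2 (n = 2), with control IgG (n = 2) and from the input (n = 2), all without a Chaserr mutation. Replicate 3 of both brain groups was made with the TruSeq kit and the other 4 brain libraries with the SENSE kit. The labels give the brain only as adult, with no age for a sample.

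Inhibitory neurons make GABA from glutamate with the decarboxylases GAD67 (Gad1) and GAD65 (Gad2) and load it into vesicles with the transporter VGAT (Slc32a1). In the forebrain, Dlx1 and Dlx2 are homeobox factors of the ganglionic eminences, where most cortical interneurons are born, and Lhx6 is a LIM homeobox factor of those from the medial eminence. Mature interneurons are commonly sorted by their peptides and calcium-binding proteins, somatostatin (Sst), vasoactive intestinal peptide (Vip), neuropeptide Y (Npy) and parvalbumin (Pvalb). Several of these genes are also used elsewhere, Pvalb in Purkinje cells and muscle, Sst in gut and pancreas, Npy in sympathetic neurons and Dlx2 in the facial mesenchyme.

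On chromosome 2 (mm9, GENCODE vM1) lie 6 of the 10 genes. Gad1 spans 70391129 to 70440071 and Dlx1 71366170 to 71372038 on the plus strand, and Dlx2 lies beside Dlx1 at 71381466 to 71384811 on the minus strand, so that this pair is transcribed toward each other. Sst lies on chromosome 16 at 23889667 to 23890930, on the minus strand, and spans 1264 bases, the shortest of the 10. The promoters of Sst, Vip, Npy and Dlx2 are shown because these genes stand at the ends of what was measured: the most abundant peptide of adult brain, the peptide that was listed at 0 at E9.5, the peptide that rose most between stages, and the factor that did not rise. Each run is the 250 bases before the start site, 5' to 3', from RefSeq on GRCm38.p6, and capitals mark TGACG or its reverse complement CGTCA, the core of the cAMP response element.
Sst, chr16:23890845-23891094, minus strand: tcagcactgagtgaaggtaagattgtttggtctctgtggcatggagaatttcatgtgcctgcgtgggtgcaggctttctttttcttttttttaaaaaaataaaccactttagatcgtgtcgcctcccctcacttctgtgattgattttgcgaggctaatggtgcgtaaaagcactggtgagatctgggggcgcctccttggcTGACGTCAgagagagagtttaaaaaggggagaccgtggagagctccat
Vip, chr10:5638968-5639217, plus strand: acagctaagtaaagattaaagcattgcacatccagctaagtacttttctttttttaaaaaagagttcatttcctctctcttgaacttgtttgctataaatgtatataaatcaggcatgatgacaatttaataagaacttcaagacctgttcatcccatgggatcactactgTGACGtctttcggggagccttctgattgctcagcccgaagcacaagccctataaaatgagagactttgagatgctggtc
Npy, chr6:49822460-49822709, plus strand: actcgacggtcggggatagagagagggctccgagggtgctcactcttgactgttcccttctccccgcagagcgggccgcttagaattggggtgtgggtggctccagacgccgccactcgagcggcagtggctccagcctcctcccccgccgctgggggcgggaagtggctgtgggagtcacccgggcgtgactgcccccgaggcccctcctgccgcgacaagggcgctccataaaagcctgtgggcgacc
Dlx2, chr2:71546755-71547004, minus strand: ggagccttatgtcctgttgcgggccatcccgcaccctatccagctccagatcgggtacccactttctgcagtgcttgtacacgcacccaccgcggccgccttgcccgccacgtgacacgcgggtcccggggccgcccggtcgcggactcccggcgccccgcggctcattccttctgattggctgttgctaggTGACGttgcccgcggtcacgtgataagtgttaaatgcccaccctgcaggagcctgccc
The Sst promoter held the full palindrome TGACGTCA, which 1.55% of 32851 promoters of that length hold, and no promoter of the other 9 genes did. The 5-letter core was in the promoters of Gad2, Sst, Vip and Dlx2, against 17.8% of all promoters. CpG dinucleotides numbered 3 in the Vip promoter and 8 in that of Sst, against 21 in Npy and 24 in Dlx2, with a median of 6 over all promoters. These are counts of letters and carry no measure of binding.

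The tissue labels were checked first. Chaserr stood at 33.0 ± 2.98 TPM (a transcript level corrected for gene length and library size) in WT and 17.6 ± 5.16 in Chaserr+/- brain (SD, n = 3 each), and at 0.00 in each Chaserr-/- mEF library. In WT mEFs its mean was 87.9 TPM in the double mutant set and 11.35 to 20.4 in the other sets, a difference that was not tested. The 10 pan-neuronal markers summed to 4159 to 5231 TPM in the 6 brains and all 10 were above 1 TPM. The 7 cerebellar markers varied widely between brains. They summed to 1028, 602 and 579 TPM in WT 2, Chaserr+/- 1 and Chaserr+/- 2, to 190 in WT 3, and to 71.1 and 35.2 in WT 1 and Chaserr+/- 3. In these last 2 brains Pcp2, a Purkinje cell gene, was at 0.91 and 0.26 TPM and Gabra6, a granule cell gene, at 0.00 and 0.11, so that 1 WT and 1 Chaserr+/- brain had these genes near 0. Chaserr+/- 3 also had Hcrt and Pmch, peptide genes of the lateral hypothalamus, at 0.38 and 0.42 TPM, against 31.1 to 66.5 and 36.0 to 253 in the other 5. The 8 striatal projection neuron markers summed to 985 to 1721 TPM in Chaserr+/- and 1014 to 1057 in WT brains. Some other marker lists differed by genotype. The 8 hypothalamic markers summed to 133 to 273 TPM in Chaserr+/- and 395 to 568 in WT, with 1 to 3 of the 8 under 1 TPM in Chaserr+/- brains and none in WT, and the 5 endothelial markers to 71.8 to 85.6 against 53.3 to 70.2. The medians of the log2 fold changes, Chaserr+/- over WT, were -0.77 and 0.31 for these lists, -0.66 for the 6 oligodendrocyte and -0.72 for the 5 choroid plexus markers, with 2 genes of each of the last pair of lists under an unadjusted p of 0.05 (edgeR) and none called. The part of brain cell composition in the brain values below was not tested. Totals of expected counts per library ran from 13956040 to 33192002 in brain, 24875751 to 29806490 at E13.5, 21589962 to 31293072 at E9.5, 9672637 to 16983416 in mEFs and 7621335 to 20050508 in the RIP libraries.

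Among brain, embryos and mEFs, the genes for GABA synthesis and the peptides were highest in adult brain. Mean Gad1 was 314 ± 40.2 TPM over the 6 brains, 10.9 ± 2.2 over the 6 E13.5 embryos, 1.27 ± 0.89 over the 23 mEF libraries and 0.37 ± 0.06 over the 6 E9.5 embryos (SD). Sst ran 1170 ± 267, 49.9 ± 10.1, 13.2 ± 9.0 and 4.04 ± 2.59 in the same order, and Npy 612 ± 199, 47.8 ± 11.4, 23.7 ± 12.3 and 0.32 ± 0.33. The transcription factors were graded otherwise. Dlx1 was as high at E13.5 (21.4 ± 6.9) as in brain (21.5 ± 14.3), and Dlx2 gave 9.44 ± 4.41 in brain, 9.02 ± 2.42 at E13.5 and 10.4 ± 1.1 at E9.5, means that differ by less than the SD over brains. Lhx6 fell between the patterns, at 15.6 ± 3.8 in brain, 7.88 ± 1.92 at E13.5 and 1.30 ± 0.15 at E9.5. Not all of these libraries were made with 1 kit, so these orders are descriptions with no test.

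**Figure D1:**
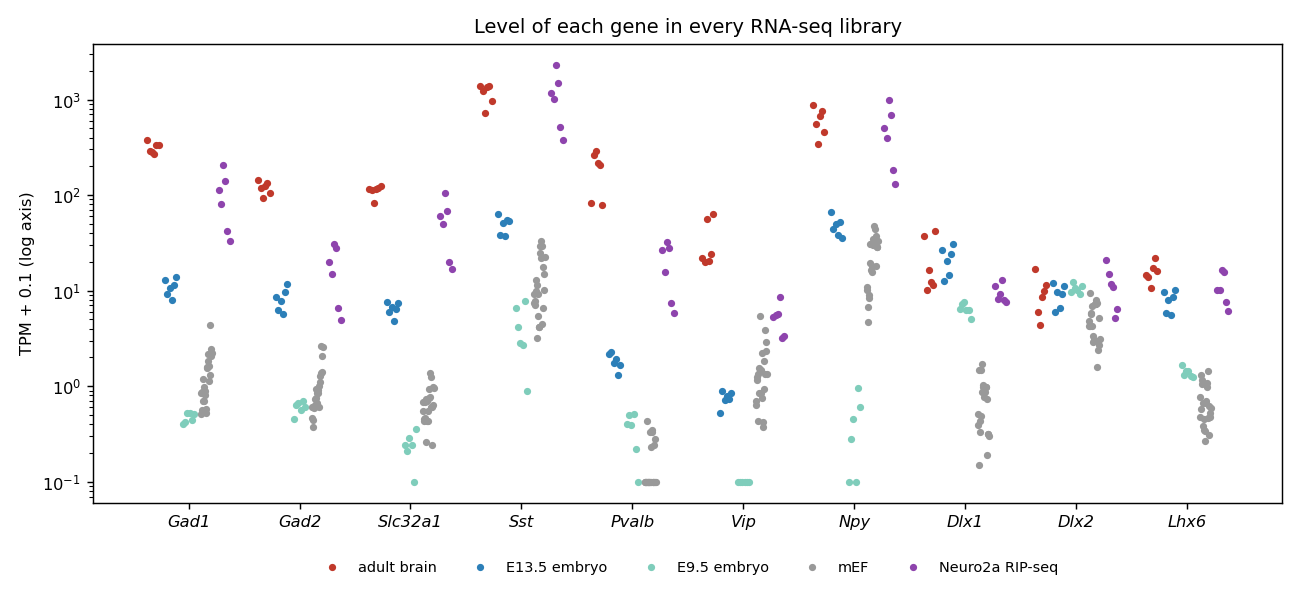
TPM plus 0.1 on a log axis for each of the 10 genes, 1 point per library, coloured by source. Gad1, Gad2, Slc32a1, Sst, Pvalb and Npy spread over several decades between adult brain and E9.5 embryos, whereas the Dlx2 points of brain, E13.5 and E9.5 overlap.

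Within the 6 brains, Gad1 stood at 376, 292 and 279 TPM in WT and at 271, 333 and 333 in Chaserr+/-, and Gad2 at 144, 120 and 93.7 against 123, 132 and 104. Slc32a1 read 117, 113 and 82.0 in WT and 115, 118 and 126 in Chaserr+/-. The genotypes overlapped for each of the 3 genes of GABA synthesis and loading. Their log2 fold changes, Chaserr+/- over WT, were -0.04 ± 0.20 (SE) for Gad1, -0.01 ± 0.24 for Gad2 and 0.17 ± 0.21 for Slc32a1, with 95% intervals of -0.50 to 0.43, -0.59 to 0.57 and -0.32 to 0.67. These intervals include both no change and changes of the size given by their ends.

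Sst and Npy were the most abundant of the 10 genes, and the peptides Sst, Npy and Vip differed more between kits than between genotypes. Sst was at 1372, 1239 and 728 TPM in WT and 1342, 1375 and 962 in Chaserr+/-, with the lowest value of each group in its TruSeq library. Npy gave 883, 554 and 345 against 668, 763 and 457, again lowest in replicate 3. Vip went the other way, at 21.9, 20.0 and 56.2 in WT and 20.4, 24.1 and 62.6 in Chaserr+/-. The fold changes between genotypes were 0.14 ± 0.35 for Sst, 0.09 ± 0.43 for Npy and 0.11 ± 0.50 for Vip on the log2 scale. The 2 TruSeq libraries differed from the 4 SENSE libraries by -0.93 ± 0.11 for Sst, -1.11 ± 0.19 for Npy and 1.27 ± 0.13 for Vip, and Gad2 (-0.55 ± 0.11) and Lhx6 (-0.53 ± 0.14) were called too (edgeR, adjusted p from 0.00016 for Vip to 0.016 for Lhx6). So 5 of the 10 passed this contrast, against 48.3% of all 14911 genes tested, and kit and replicate number cannot be told apart.

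Pvalb and Dlx1 split along another line. Pvalb was at 82.7, 261 and 291 TPM in WT and 215, 207 and 78.6 in Chaserr+/-, low in the 2 brains with cerebellar genes near 0. Dlx1, at 37.4, 10.0 and 16.2 in WT and 12.3, 11.3 and 42.0 in Chaserr+/-, was high in those same 2 brains. Dlx2 followed in part, with 16.7, 5.93 and 4.27 in WT and 8.52, 9.70 and 11.5 in Chaserr+/-. With 1 such brain in each group the genotypes overlapped, and the log2 fold changes were -0.29 ± 0.56 for Pvalb, -0.02 ± 0.62 for Dlx1 and 0.11 ± 0.51 for Dlx2. Without those 2 brains Pvalb gave -0.29 and Dlx1 -0.08, with unadjusted p of 0.228 and 0.788, while Dlx2 gave 0.89 with an unadjusted p of 0.0457 and an adjusted p of 0.609 (edgeR quasi-likelihood test), where 6.43% of all genes had an unadjusted p under 0.05. That fit set 1 SENSE and 1 TruSeq WT brain against 2 SENSE Chaserr+/- brains, so it is not balanced by kit, and Dlx2 differed by -0.62 ± 0.46 between TruSeq and SENSE libraries. In bulk tissue, fewer cells of a type and less RNA per cell cannot be told apart, and the part that cerebellar RNA has in these values was not tested beyond these fits.

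**Figure D2:**
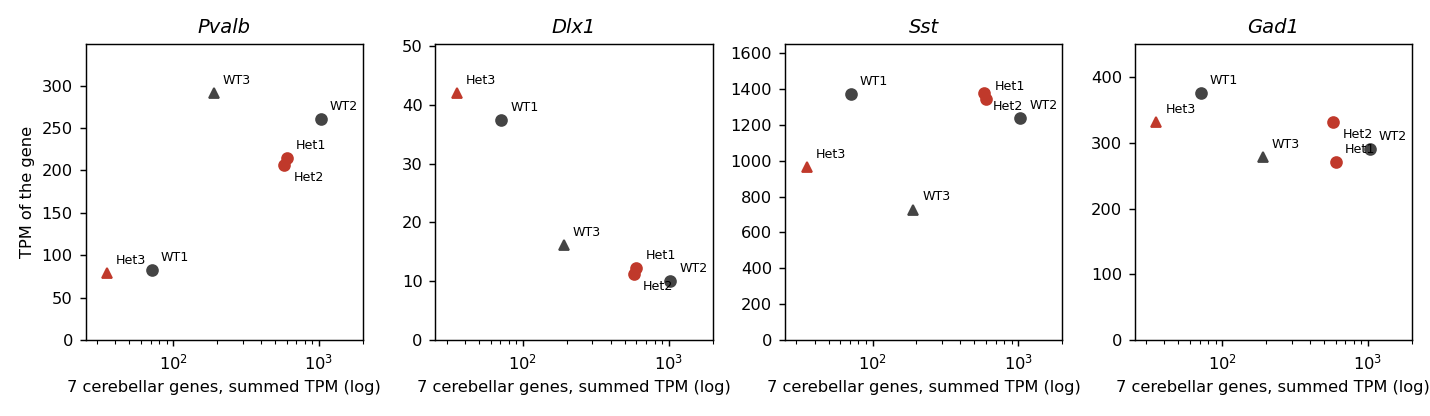
TPM of Pvalb, Dlx1, Sst and Gad1 in each brain against the summed TPM of 7 cerebellar genes (log axis), grey for WT, red for Chaserr+/-, triangles for the TruSeq libraries. WT 1 and Chaserr+/- 3 lie at the left, with Pvalb of 82.7 and 78.6 and Dlx1 of 37.4 and 42.0, while the lowest Sst values are those of the TruSeq libraries.

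Lhx6 was the member whose brain values came nearest to separating by genotype. It stood at 14.5, 13.9 and 10.6 TPM in WT and at 17.1, 21.8 and 16.0 in Chaserr+/-, each mutant brain above each WT brain, although after TMM scaling the lowest Chaserr+/- library (21.0 CPM, counts scaled to library size) fell just under the highest WT library (21.4). Its log2 fold change was 0.48 ± 0.25 with an unadjusted p of 0.101 and an adjusted p of 1.00 (edgeR). With the kit as covariate it was 0.49 with an unadjusted p of 0.00610, with the replicate block 0.48 (p 0.00912) and in SENSE libraries alone 0.45 (p 0.0268). Those fits gave an unadjusted p under 0.05 to 15.1%, 13.1% and 11.8% of all genes. The adjusted p of Lhx6 over its alternatives ran from 0.228 to 1.00, so the difference failed the correction in each fit. No gene of the 10 was called between Chaserr+/- and WT brain, as 0 of all 14911 genes tested were (0%). A lack of overlap in the higher direction was seen for 4.11% of all genes, and in either direction for 9.22%. In the main fit, without a term for the kit or the replicate number, none of the 10 reached an unadjusted p under 0.05. Of all genes, 2.47% did. With either term Lhx6 alone did. On leaving out WT 1, Dlx2 gave 0.94 (edgeR, unadjusted p 0.0245), where 116 of 15203 genes were higher and 130 lower under 0.05. On leaving out Chaserr+/- 3, Lhx6 gave 0.62 (edgeR, unadjusted p 0.0477), where 396 of 15112 genes were higher and 462 lower. Neither was called. DESeq2 called none of the 10 and 1 gene in all.

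**Figure D3:**
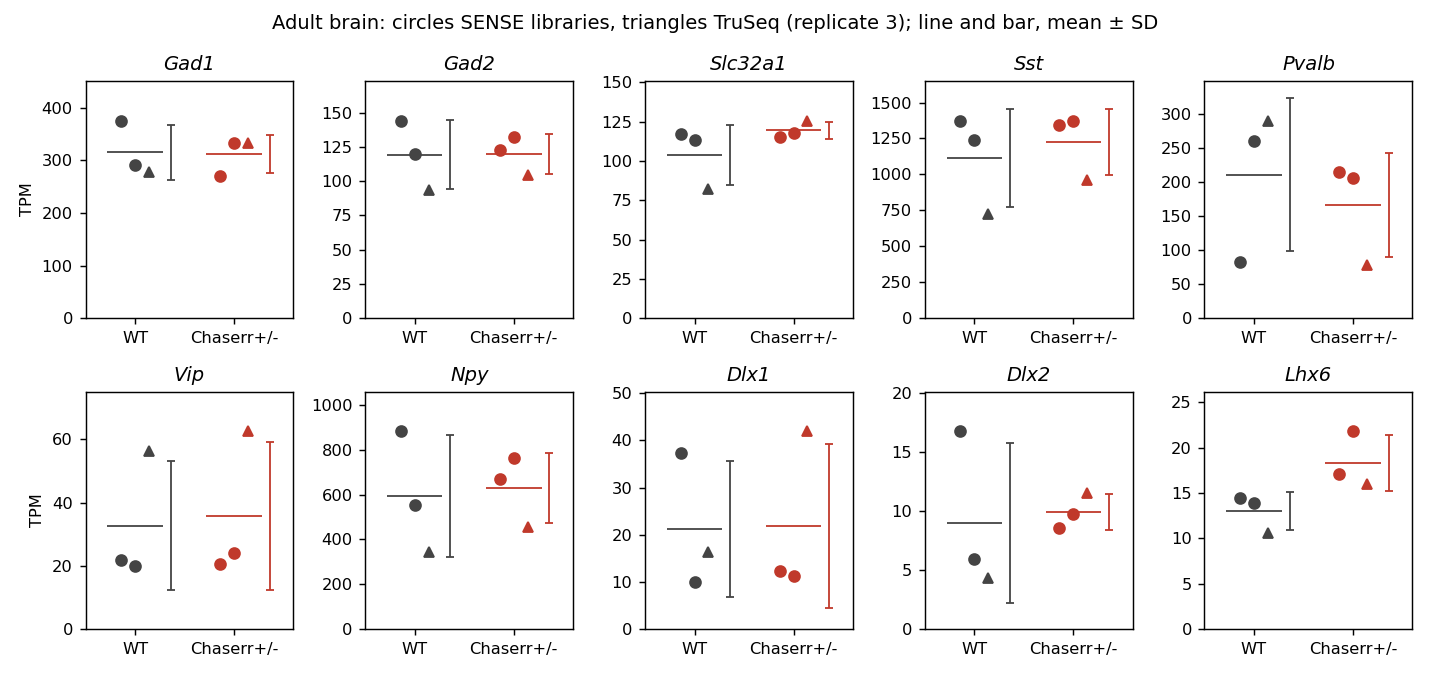
TPM of the 10 genes in each adult brain library, grey for WT and red for Chaserr+/-, circles for SENSE and triangles for TruSeq libraries, with the mean as a line and the SD as a bar (n = 3 a group). WT and Chaserr+/- points overlap for 9 genes, and the Lhx6 points run from 10.6 to 14.5 in WT and from 16.0 to 21.8 in Chaserr+/-.

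At E13.5 the RNA came from whole embryos and 8 of the 10 genes had a lower mean than in brain by more than 1 SD of the brain values, Dlx1 and Dlx2 excepted. Gad1 was at 12.7, 9.03 and 10.7 TPM in WT and 7.89, 11.3 and 13.8 in Chaserr+/-, Gad2 at 8.46, 6.15 and 7.75 against 5.63, 9.51 and 11.7, and Slc32a1 at 7.55, 5.88 and 6.72 against 4.69, 6.38 and 7.28. Sst gave 63.7, 38.5 and 50.6 in WT and 37.6, 55.2 and 53.6 in Chaserr+/-. WT 2 was the lowest WT embryo and Chaserr+/- 1 the lowest mutant embryo for each of these 4 genes. The pan-neuronal sum was lowest in those 2 embryos as well, with 1274 TPM in WT 2 and 1051 in Chaserr+/- 1 against 1326 to 1550 in the other 4, and the part of neuronal content in the spread was not tested.

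Dlx1 had the widest spread of the 10 at E13.5, its highest library at 2.42 times its lowest, followed by Gad2 (2.08) and Dlx2 (2.02). Dlx1 was at 26.5, 12.6 and 20.4 TPM in WT and 14.6, 23.8 and 30.5 in Chaserr+/-, Dlx2 at 11.9, 5.90 and 9.51 against 6.51, 9.14 and 11.2, and Lhx6 at 9.5, 5.69 and 7.95 against 5.51, 8.57 and 10.1. Npy stood at 66.9, 44.4 and 50.3 in WT and 37.7, 52.0 and 35.5 in Chaserr+/-, so that Chaserr+/- 3 was highest for Dlx1 and lowest for Npy. Pvalb (1.2 to 2.16 TPM) and Vip (0.42 to 0.80) were barely read, on 14 to 24 and 8 to 17 counts a library. The genotypes overlapped for each gene, where 12.8% of all genes did not. The log2 fold changes ran from -0.32 ± 0.19 for Npy to 0.30 ± 0.22 for Gad2, and their SEs from 0.14 for Slc32a1 to 0.31 for Vip. None of the 10 was called by edgeR or by DESeq2. In the main edgeR fit none had an unadjusted p under 0.05 (lowest adjusted p 0.740). Of 15946 genes, 0.0314% were called in that fit and 6.34% were under an unadjusted 0.05. Over the alternatives Gad2 alone had an unadjusted p under 0.05, 0.0102 at the lowest (edgeR or DESeq2), with a lowest adjusted p of 0.502. On leaving out each library its log2 fold change ran from 0.083 to 0.50.

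**Figure D4:**
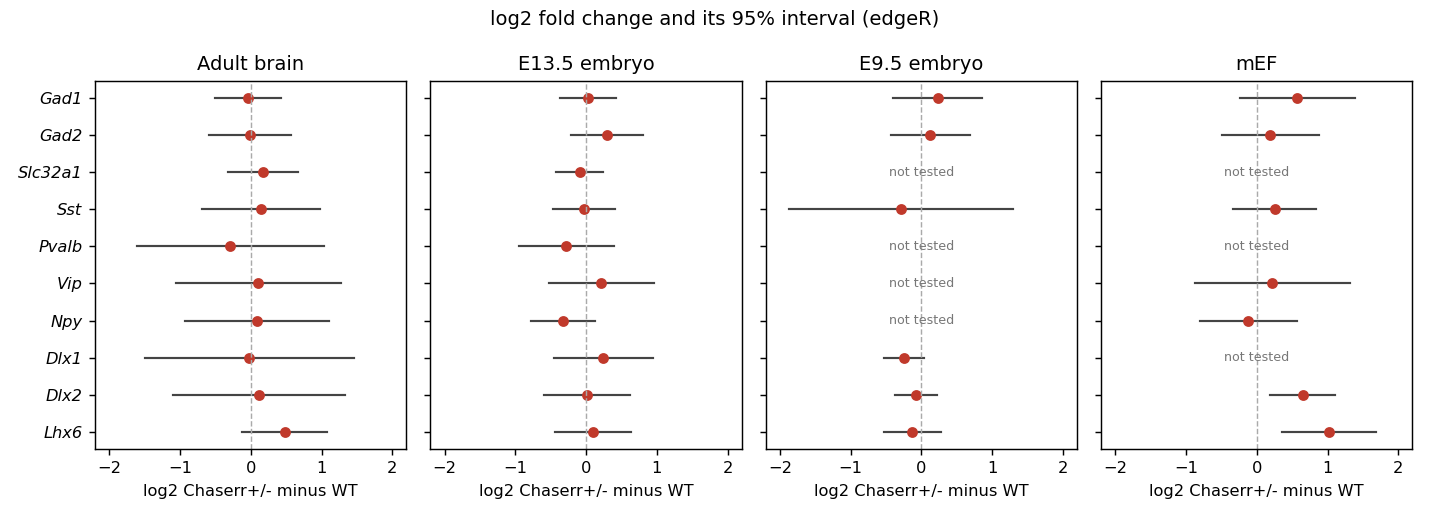
Log2 fold change of Chaserr+/- over WT for each gene (point) with its 95% interval (line) in adult brain, E13.5 embryos, E9.5 embryos and mEFs, 3 libraries a group. Intervals include 0 for all genes tested in brain and embryos, and in mEFs those of Dlx2 (0.19 to 1.11) and Lhx6 (0.36 to 1.68) do not.

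At E9.5, before most neurons have formed, 6 of the 10 genes passed the filter on low counts. Dlx2 was the highest, at 9.56, 12.2 and 10.5 TPM in WT and 9.94, 9.15 and 11.1 in Chaserr+/-. Dlx1 read 6.36, 7.09 and 7.50 in WT and 6.15, 6.14 and 4.99 in Chaserr+/-, lower in each mutant embryo, with a log2 fold change of -0.25 ± 0.12 (edgeR unadjusted p 0.0730, adjusted p 1.00). That lack of overlap in the lower direction was shared by 4.28% of 14500 genes. In the same embryos 4 of 5 fibroblast markers had an unadjusted p under 0.05 (edgeR), with a median of -0.51, and their part in the Dlx1 value was not tested. Sst varied from 0.79 to 7.68 TPM within the mutant embryos, and Vip had 0 counts in all 6. None of the 6 was called or had an unadjusted p under 0.05 by edgeR, where 0% of all genes were called and 3.12% were under an unadjusted 0.05. DESeq2 called none of them either, and of 19068 genes it called 2 higher and 3 lower.

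Between the WT embryos of the stages, made with the same kit, the set rose with development. Npy went from 0.00, 0.18 and 0.35 TPM at E9.5 to 66.9, 44.4 and 50.3 at E13.5, a log2 difference of 7.82 ± 0.38 on 0 to 2 counts a library at E9.5, so that its size depends on the fit. Slc32a1 rose by 5.24 ± 0.21, Gad1 by 4.75 ± 0.18, Gad2 by 3.68 ± 0.19, Sst by 3.27 ± 0.29, Pvalb by 2.28 ± 0.36, Lhx6 by 2.22 ± 0.20 and Dlx1 by 1.25 ± 0.23. Dlx2 moved by -0.50 ± 0.22 with an adjusted p of 0.0570, and Vip, at 0.42 to 0.80 TPM against 0.00, was below the filter of that test. DESeq2, which kept Vip, called all 10, Dlx2 lower and the others higher, and 63.4% of all genes. Thus by edgeR 8 of 9 tested genes were called higher (adjusted p at most 0.00066, edgeR), where 42.1% of 15761 genes were and 80.4% were called in either direction. The pan-neuronal markers were all called higher as well, 10 of 10 with a median of 3.18, against 3.27 for the 9 tested genes and 0.06 over all genes, and the share that more neurons have in the rise was not tested.

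The wider GABA system moved with the stage in the same fit. Of 15 receptor subunit genes tested 14 were called higher and none lower, with the GABA-B subunit Gabbr2 at 5.09. Of 18 tested genes of the interneuron subtype list 15 were higher and 2 lower, among them the calcium-binding protein gene Calb1 at 6.19 and Cck, a peptide gene, at -1.72. All 8 tested receptors of interneuron peptides were higher. The transcription factor list was mixed, with 10 of 18 higher and 3 lower, beside 42.1% of all genes called higher and 80.4% called in either direction, and held Lhx8 at 2.69 and Sp8 at -2.25. Of the 6 tested genes of GABA transport and breakdown, 4 were higher, and the glutamine transporter Slc38a1 fell by 1.03.

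None of these 5 lists held a called gene between Chaserr+/- and WT brain or E13.5 embryos by edgeR. In brain, the medians of the lists ran from -0.22 for GABA transport and breakdown to -0.03 for the transcription factors, beside 0.10 for the 10 genes and 0.01 over all genes. The nearest to a call were Htr3a, an ionotropic serotonin receptor of Vip and other interneurons, at 11.3 ± 0.9 CPM in Chaserr+/- and 7.22 ± 1.90 in WT (SD, n = 3; log2 0.65 ± 0.25, unadjusted p 0.0357), and Vipr1, a receptor for Vip, at 21.7 ± 6.7 and 14.1 ± 2.2 (0.62 ± 0.27, p 0.0517), both with an adjusted p of 1.00 (edgeR). Aldh5a1, which removes the last intermediate of GABA breakdown, stood at 101 ± 5.7 against 124 ± 10.0 CPM, and Slc6a11, the GABA transporter of astrocytes, at 327 ± 90.7 against 454 ± 46.6. The receptor subunit Gabrb2 (log2 -0.35 ± 0.20) had an adjusted p of 1.00 too. Lhx8 (0.46 ± 0.30), Sox6 (-0.37 ± 0.31), Pnoc (-0.50 ± 0.32) and Sstr5 (1.05 ± 0.81) were the other genes with the lowest p of their lists.

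At E13.5 the smallest p among the lists belonged to Sp8, a zinc finger factor of the lateral and caudal eminences, at 5.44 ± 0.52 CPM in Chaserr+/- and 4.27 ± 0.31 in WT (log2 0.35 ± 0.13, unadjusted p 0.0301, adjusted p 0.732). Sox6 gave 0.24 ± 0.11 there and -0.37 in brain, and Gabrb2 0.32 ± 0.20 there and -0.35 in brain. Slc38a1 (0.10 ± 0.05), Slc6a11 (-0.35 ± 0.21), Gabra2 (0.35 ± 0.17), Lamp5 (-0.32 ± 0.18), Nos1 (-0.30 ± 0.19), Npy1r (0.22 ± 0.15) and Sstr1 (-0.13 ± 0.14) had adjusted p from 0.732 to 0.822. The medians of the 5 lists lay between -0.04 and 0.13, beside 0.02 for the 10 genes.

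In mEFs 7 of the 10 genes had a median under 2 TPM. The pan-neuronal markers summed to 33.5 to 112 TPM and the 5 fibroblast markers to 1014 to 4107. Pvalb was at 0.00 TPM in 16 of the 23 libraries and at no more than 0.33 in the others. Npy (4.64 to 47.6 TPM), Sst (3.06 to 32.7) and Dlx2 (1.47 to 9.46) were the highest, and Gad1 reached 4.29 TPM in WT 3 of the double mutant set but 2.33 at most in the other 22.

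In Chaserr+/- mEFs, Dlx2 and Lhx6 were higher in each mutant library than in each WT library. Dlx2 read 9.46, 5.61 and 5.73 TPM against 4.18, 4.73 and 4.18, a log2 fold change of 0.65 ± 0.21, and Lhx6 1.21, 0.96 and 1.06 against 0.67, 0.38 and 0.48, a fold change of 1.02 ± 0.30. Their unadjusted p were 0.00980 and 0.00597 and their adjusted p 0.364 and 0.302 (edgeR), which ran from 0.244 to 0.898 and from 0.246 to 0.863 over the alternatives. Such non-overlap in the higher direction was seen for 7.65% of 13282 genes, 0.173% were called and 8.36% had an unadjusted p under 0.05. Lhx6 rested on 8 to 30 counts a library. None of the 7 tested genes was called by edgeR or DESeq2. The log2 fold changes of Lhx6 for the same contrast were 0.48 in brain, 0.10 at E13.5 and -0.13 at E9.5, and differences between these sources were not tested.

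In Chaserr-/- mEFs, Dlx2 was at the other side. It read 2.81, 2.91 and 2.89 TPM in the mutants and 4.12, 6.87 and 3.27 in WT, and Npy 16.5, 17.9 and 15.6 against 30.4, 19.5 and 30.7, both lower without overlap. Their log2 fold changes were -0.79 ± 0.29 and -0.79 ± 0.26, with adjusted p of 0.0942 and 0.0726 (edgeR; unadjusted 0.0215 and 0.0114). Lower values without overlap were seen for 21.4% of 13580 genes in this comparison and an unadjusted p under 0.05 for 33.9%, while 0.118% were called by edgeR. That share was unstable, at 10.9% with at least 10 counts in every library, 20.5% without Chaserr-/- replicate 2 and 13.9% by DESeq2, and none of the 10 was called in any of these. In the same libraries the 9 enteric, sympathetic and endocrine markers summed to 4.74 to 10.9 TPM in the mutants and 15.8 to 20.9 in WT, with 3 to 8 of the 9 under 1 TPM in the mutants and 3 to 4 in WT and a median log2 fold change of -0.996 over 6 tested. The microglia markers summed to 100.5 to 139 against 159 to 181, with 4 of 6 under an unadjusted p of 0.05 (edgeR), and the fibroblast markers to 2871 to 3599 against 4031 to 4107. Their part in the Dlx2 and Npy values was not tested. Sst gave -0.88 ± 0.46 and Vip 0.95 ± 0.65, the second through 1 mutant library of 5.34 TPM against 0.74 to 1.46 in the other 5.

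Neither set with mutant Chd2 held a called gene of the 10. Chd2 m/m mEFs, compared over 2 mutant and 3 WT libraries, gave Lhx6 0.68 ± 0.33 and Dlx1 0.29 ± 0.29, the latter 0.88 and 0.89 TPM against 0.67 to 0.77, a lack of overlap in that direction that 10.3% of 13777 genes shared, while 0.0145% were called and 4.51% had an unadjusted p under 0.05. Double mutants gave Slc32a1 0.94 ± 0.49, Sst 0.73 ± 0.47 and Dlx2 0.69 ± 0.32 with adjusted p from 0.530 to 0.690 (edgeR), where 0.0924% of 14076 genes were called and 9.89% had an unadjusted p under 0.05. Slc32a1 was higher in each mutant library, as 6.44% of genes were. In this comparison all 5 fibroblast markers had an unadjusted p under 0.05 (edgeR), with a median of -0.75 and sums of 1858 to 2413 TPM against 2486 to 3231 in WT. The pan-neuronal markers had a median of 0.41, with sums of 90.9 to 112 against 63.8 to 108.5, and the part of either in the member values was not tested. In the main fits no member had an unadjusted p under 0.05 in either set, and DESeq2 called none in either. Over the alternatives in double mutants, the lowest unadjusted p were 0.00255 for Sst, 0.00553 for Gad1 and 0.0243 for Dlx2 (edgeR or DESeq2). Their lowest adjusted p were 0.0976, 0.147 and 0.434. Sst was at 17.4 TPM in WT 3 of that set, against 4.40 and 6.50 in WT 1 and WT 2. In Chd2 m/m mEFs Lhx6 and Vip also fell under an unadjusted 0.05 in an alternative (edgeR or DESeq2), without a call. Dlx2 in double mutants read 5.06, 2.62 and 2.99 TPM against 1.47, 2.86 and 2.27 in their WT.

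Open chromatin at the start sites of the 10 genes was read from the peaks of 12 mEF ATAC-seq libraries, called in each library by the authors. Within 300 bases of a coding start site, Npy, Dlx1, Dlx2 and Lhx6 had a peak in 10 libraries, Pvalb in 9, Gad2 in 8, Vip in 4 and Slc32a1 in 2. Sst and Gad1 had none in any of the 12. Within 1000 bases Gad1 had a peak in 6 libraries, Slc32a1 in 4 and Dlx1 in all 12, and the other 7 counts were as before. Over all 22238 coding genes, 33.2% had a peak within 300 bases in all 12 libraries and 34.1% in none. By library, 34.8% to 62.9% of genes had one. The share of genes with a peak in at least 10 libraries was not counted, so the member counts have no matching share. The 2 libraries with the fewest peaks, WT 2 (18661) and double mutant 1 (28349) of the double mutant set, against 58324 to 93597 in the others, had no peak at any of the 10 genes within 300 bases, and one at Dlx1 within 1000. In the mEF groups that also had ATAC-seq, the Sst start site, without a peak, belongs to a gene read at 3.06 to 22.5 TPM. The Pvalb start sites, with peaks in 9 libraries, belong to a gene at 0.23 TPM at most in those groups. Whether a peak size differed between genotypes was not tested.

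The 6 libraries labelled Neuro2a have to be read with their markers. Together with Phox2a, a factor of sympathetic and neuroblastoma cells (15.4 to 382 TPM), they held Mbp of oligodendrocytes at 404 to 2509 TPM, Ttr of the choroid plexus at 1376 to 9643, Camk2a of forebrain excitatory neurons at 524 to 3390 and Slc17a7 at 166 to 1028. All 6 oligodendrocyte and all 6 astrocyte markers were above 1 TPM in each library, while the cerebellar gene Gabra6 was at 0.00 to 0.32. Chaserr, the RNA that the study tested, was at 18.5 and 8.45 TPM in the CHD2 libraries, 2.37 and 0.00 in IgG and 1.64 and 3.50 in input. The values below describe the libraries as labelled and were not taken as those of a pure cell line.

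In those libraries Sst was at 1163 and 1001 TPM after CHD2 RIP, 2306 and 1482 after IgG and 511 and 380 in input. Npy gave 498 and 393, 990 and 696, and 184 and 129, and Gad1 112 and 79.7, 205 and 140, and 41.9 and 33.2. On the TPM scale the order IgG over CHD2 over input held in every library for Gad1, Gad2, Slc32a1, Sst, Pvalb, Vip, Npy and Lhx6, and Mbp had the same order. The ratio of Sst to Mbp lay between 0.776 and 0.992 in all 6, whereas in the 6 brains it ran from 0.0811 to 0.364. Gad1, Gad2, Slc32a1 and Npy also kept a nearly fixed ratio to Mbp, with the highest ratio 1.25, 1.26, 1.30 and 1.23 times the lowest over libraries in which their TPM differed 6.18, 6.31, 6.41 and 7.66 times. Dlx2 did not share that order, at 20.8 and 14.9 TPM after CHD2 RIP, 11.7 and 10.9 after IgG and 5.05 and 6.29 in input, and its ratio to Mbp varied 3.46 times.

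**Figure D5:**
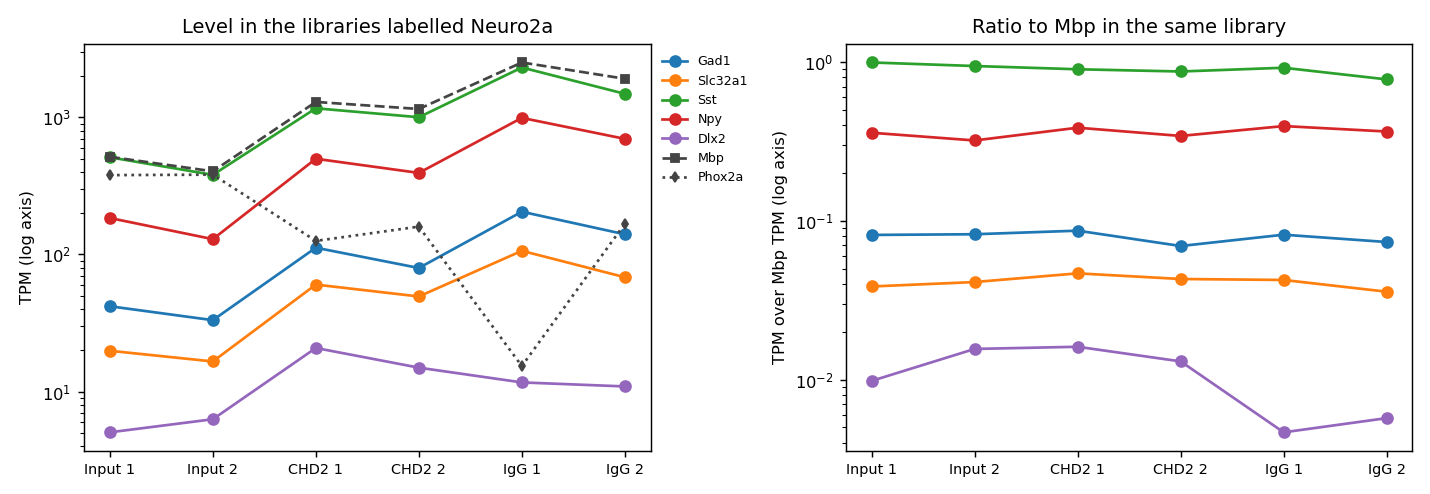
Left, TPM of Gad1, Slc32a1, Sst, Npy and Dlx2 with Mbp and Phox2a in each of the 6 libraries labelled Neuro2a (log axis), with lines joining the points of a gene. Right, the TPM of the 5 genes over that of Mbp in the same library (log axis): Sst stays between 0.776 and 0.992 while Dlx2 varies 3.46 times.

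Between CHD2 and IgG, the log2 fold changes were -1.11 ± 0.37 for Gad1, -1.07 ± 0.39 for Npy, -0.97 ± 0.36 for Gad2, -0.97 ± 0.39 for Sst, -0.88 ± 0.37 for Slc32a1 and -0.87 ± 0.36 for Lhx6, and 0.47 ± 0.35 for Dlx2. Both CHD2 libraries lay below both IgG libraries for 8 of the 10, where 33.5% of 14906 genes did, and above them for Dlx2 alone, where 34.8% did. None passed an adjusted p of 0.05 by edgeR (lowest 0.0823 for Gad1), 6 had an unadjusted p under 0.05, DESeq2 called 4 and 18.8% of all genes, and by edgeR 11.5% of all genes were called and 34.5% had an unadjusted p under 0.05. Excluding IgG replicate 2, 6 of the 10 were called lower, but so were 19.3% of all genes, with 41.5% called in either direction. That fit leaves 1 IgG library, which is assumed to vary like the other groups. The medians of the oligodendrocyte and astrocyte markers in this contrast were -1.04 and -1.05, beside -0.87 for the 10 genes and 0.02 over all genes.

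Against input, the log2 fold changes were 1.02 ± 0.36 for Gad2, 1.02 ± 0.38 for Slc32a1, 0.93 ± 0.39 for Npy, 0.78 ± 0.37 for Gad1 and 1.14 ± 0.36 for Dlx2, with 0.04 ± 0.36 for Lhx6 and -0.24 ± 0.38 for Dlx1, whose libraries overlapped. The median over all genes was itself at 0.32 under TMM scaling and at 0.19 under DESeq2 size factors, and the median of the 10 was 0.86, beside 0.82 for the oligodendrocyte markers. None was called by edgeR (lowest adjusted p 0.0649 for Dlx2) or DESeq2 and 4 had an unadjusted p under 0.05, while 15.1% of all genes were called and 34.5% had an unadjusted p under 0.05. Both CHD2 libraries lay above both input libraries for 8 of the 10 and for 44.0% of all genes. Without IgG replicate 1, which shares the estimate of the spread, 4 of the 10 were called higher, but so were 20.4% of all genes, with 33.4% called in either direction. What part the RNA of brain cell types has in these values was not tested.

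The genes most like each of the 10 over the 41 libraries outside RIP were found by the Pearson correlation of log2(TPM + 1) among 16816 genes. The 10 genes themselves were left out of the ranking. Gad1 and Gad2 gave an r of 0.99418, above that of Gad1 with Iqsec3 (0.99412). The libraries share tissue and kit, so high values mainly say that genes are high in the same sources, and no p is given. Gad1 was nearest to Syt1, a synaptic vesicle gene, Ptprt and Iqsec3 (r from 0.994 to 0.995), Gad2 to the cell adhesion genes Mdga2 and Nrxn3 (0.996 each), and Slc32a1 to Pcsk2, Disp2 and Phf24 (0.995 each). Pvalb was nearest to Lhfpl5, the sodium channel gene Scn1a and Cfap46 (0.992 to 0.994), Sst to Cend1, Celf4 and Eef1a2 (0.981 to 0.984) and Npy to Celf2, Tmeff2 and Nexmif (0.959 to 0.970). Vip was nearest to 4833422C13Rik, Pla2g7 and Gda (0.953 to 0.956), Lhx6 to Mcf2l, Celsr3 and Chrnb2 (0.976 to 0.979) and Dlx1 to C130074G19Rik, Nr2e1 and Jag2 (0.966 to 0.972). Dlx2 had no close companion, with Fbxl18, Sh3rf1 and Timm10 at 0.796 to 0.813.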

How the data were processed

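RNA-seq tables gave, per gene and library, expected counts and TPM that the authors made with RSEM, per the labels, with the builds mm9 and mm10 named in the submitters' processing notes. ATAC-seq peaks, with a fold enrichment over background, were called by the authors in each library with MACS2 after Bowtie2 alignment to mm9. Of 24990 rows, 23449 were named by gene ID, 374 by joined IDs and 1139 by transcript, and 28 had no name. Glul and Pdgfra were not matched, and 4C data were not analysed here.

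Expected counts were rounded, filtered by filterByExpr, scaled by TMM and tested with edgeR 4.0.16 (quasi-likelihood, R 4.3.3) across all genes of a comparison, with Benjamini-Hochberg adjustment and a threshold of 0.05. CPM values are TMM scaled. The fits were also run on simulated counts with a common spread for all genes, and that outcome is not used as support here. Alternatives were DESeq2 1.42.0, its size factors, the count filter, the replicate block, the kit, SENSE libraries alone and leaving out each library. In brain, deviations of same-numbered libraries correlated at 0.437, 0.529 and 0.747. Replicate number goes with the kit there, and 48.3% of genes were called between kits. These correlations therefore cannot show that the numbers pair the animals, and the main brain fit was unpaired. Peaks were assigned within 300 bases of a start site, or 1000 as an alternative.

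The members and lists were chosen with earlier results of these data known. The text names all members, of each list the genes called in brain or E13.5 or otherwise up to 2 with the smallest p, and for each member the 3 genes with the highest correlation among those with a mean TPM of at least 1 in a group. Some genes that this rule selects are not reported here. Genes named between stages to illustrate a list were chosen after their values were seen.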

Additional observations from a re-analysis of the deposited data

How the results depend on the processing

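Over 86 results and 946 alternative values, 839 kept direction and side of the threshold, 30 passed the threshold where the reported value did not, none lost it and 77 changed sign, and 53 results never changed sign. Leaving out the 2 brains with cerebellar genes near 0 and using the cerebellar marker level as a covariate were alternatives chosen after seeing the data. Without those brains Gad1 was 0.12, Gad2 0.30 and Vip -0.67, in a fit with 1 SENSE and 1 TruSeq WT brain against 2 SENSE Chaserr+/- brains, and with the covariate Vip was -0.044. With the replicate block, brain Gad2 was 0.0053 and Dlx1 0.0015, and Chd2 m/m Gad1 0.21 and Slc32a1 0.26. With the kit as covariate Gad2 was 0.0027, and in SENSE libraries alone Pvalb was 0.30 and Dlx2 -0.31. Against input, Vip was -0.066 and Lhx6 -0.21 with no filter on low counts, and Lhx6 was -0.094 by DESeq2 and -0.090 with its size factors. The cause was not tested.

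Between stages, 5 genes were called with at least 10 counts in every library, where fewer were tested, and Dlx2 passed the threshold by DESeq2 (-0.53), with its size factors (-0.52) and without WT E13.5 replicate 1 (-0.74). For CHD2 over IgG, 4 genes were called by DESeq2, 2 with no filter, 5 with the replicate block and 0 to 6 on leaving out 1 library, the 6 without IgG replicate 2. For CHD2 over input, 1 was called with at least 10 counts, 5 with the replicate block and 0 to 4 on leaving out 1 library, the 4 without IgG replicate 1. With 2 replicate numbers the RIP pairing could not be settled, nor could that of brain, where the numbers go with the kit. In the other sets the numbers were not taken to pair the samples. The block changed no call in brain, embryos or mEFs. No paired analysis was possible for Chaserr-/- mEFs because they share no replicate number with their WT.

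Leaving out 1 library at a time changed the sign of the following log2 fold changes, given as lowest to highest. In brain these were Gad1 -0.16 to 0.12, Gad2 -0.19 to 0.16, Slc32a1 -0.0096 to 0.28, Sst -0.14 to 0.36, Pvalb -0.66 to 0.083, Vip -0.47 to 0.66, Npy -0.23 to 0.52, Dlx1 -0.80 to 0.70, Dlx2 -0.26 to 0.94. In E13.5 these were Gad1 -0.13 to 0.16, Slc32a1 -0.20 to 0.014, Sst -0.19 to 0.17, Dlx2 -0.21 to 0.25, Lhx6 -0.075 to 0.28. In E9.5 these were Gad2 -0.067 to 0.24, Sst -1.31 to 0.20, Dlx2 -0.15 to 0.043. In Chaserr+/- mEFs these were Vip -0.098 to 0.64, Npy -0.41 to 0.13. In Chaserr-/- mEFs these were Vip -0.21 to 1.37, Dlx1 -0.020 to 0.87. In Chd2 m/m mEFs these were Gad1 -0.12 to 0.21, Gad2 -0.67 to 0.28, Slc32a1 -0.44 to 0.30, Sst -0.35 to 0.029, Npy -0.27 to 0.26. In double mutant mEFs these were Gad1 -0.32 to 1.04, Gad2 -0.019 to 0.62, Vip -0.37 to 0.50, Npy -0.21 to 0.25, Lhx6 -0.042 to 0.57. In CHD2 over input these were Vip -0.17 to 0.19, Lhx6 -0.48 to 0.11. Low counts limit Vip and Pvalb in the embryos and most mEF values.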
